A study of Mus musculus with 43 samples.

Results

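The interleukin-1 (IL-1) family and inflammasome genes described here are 10 mouse genes: the ligands Il1a, Il1b, Il18 and Il33, the receptor antagonist Il1rn, the receptors Il1r1, Il1rap and Il1rl1, the decoy receptor Il1r2 and the sensor Nlrp3. They were chosen by name, as rows of a raw count table whose Ensembl identifier maps to these symbols, and all 10 of the 57010 genes in the table were found. The table covers bulk RNA sequencing of mouse endothelial cells (EC), cardiomyocytes (CM) and whole hearts. Mice carried Q150X, a Vegfa allele made with CRISPR/Cas9 as a model of a human VEGFA stop-gained variant and marked HO in the design text, or were wild type. Hearts were taken at homeostasis (3 Q150X and 3 wild-type libraries), 7 days after myocardial infarction, MI (4 and 4), and 30 days after MI (4 and 3). EC were taken 3 days after MI (2 Q150X and 2 wild-type libraries) and at homeostasis (3 and 3), and CM at the same times (3 libraries in each of their 4 groups). The labels name no other allele or agent and no sham-operated group. The labels give neither strain, age, sex nor the way EC and CM were isolated, and nothing says whether replicates came from separate animals, so p-values measure the spread between these samples.

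IL-1 alpha and IL-1 beta bind the receptor encoded by Il1r1, which signals once the accessory chain encoded by Il1rap joins it. IL-1 alpha is released by damaged cells, whereas IL-1 beta and IL-18 are made as precursors that caspase-1 cleaves after a sensor such as NLRP3 has assembled an inflammasome. The antagonist IL-1RN occupies the receptor without signalling, the decoy IL-1R2 binds IL-1 without signalling, and IL-33 acts through ST2, the product of Il1rl1. In the infarcted heart this system is known for the recruitment of leukocytes, for scar formation and, in the case of soluble ST2, as a blood marker of heart failure. The RNA levels below say nothing about cleavage or secretion of these proteins.

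Libraries held 25035490 to 45243608 counts. Levels are given as CPM, the count of a gene as a share of all counts of its library on a scale of 1000000. Whether groups overlap was read on CPM, without the factors for library composition (TMM) that the tests apply. The share of all genes whose groups separate was not counted. Q150X EC number 2 at day 3 stood apart from number 1, with a summed level of 7 lymphocyte markers of 1173 CPM against 60.7 CPM, 1684 CPM of the recombination gene Rag1, and 10 endothelial markers summing to 1147 CPM against 3144 CPM. The EC libraries of day 3 had 390.3 to 1422 CPM of Xist and at most 0.352 CPM of Ddx3y, whereas those of homeostasis had at most 1.23 CPM of Xist and at least 201 CPM of Ddx3y, so that time after MI and sex cannot be told apart in EC. Atrial markers summed to 105 to 319 CPM in Q150X EC and 205 to 289.9 CPM in wild-type EC at homeostasis. At day 3 they summed to 2.37 to 7.69 and 4.46 to 16.1 CPM, so that this difference and time cannot be told apart either. Wild-type CM at homeostasis had 14.8 to 22.3 CPM of these markers. In hearts at homeostasis, number 1 of each genotype carried atrial markers (summed level 2343 CPM in Q150X and 2864 CPM in wild type), and wild-type heart number 4 at day 7 held 493 CPM of the placental gene Tpbpa. Counts and calls of the 10 genes, and the list counts, are given with and without Q150X EC number 2 of day 3 and the hearts just named. Those resting hearts also had 85.6 and 86.2 CPM of fat markers. At day 30 fat markers summed to 1.82 to 151 CPM in Q150X and 0.302 to 97.3 CPM in wild-type hearts, against at most 0.372 CPM at day 7. Epicardial markers summed to 69.6 to 469.9 and 56.3 to 231 CPM at day 30, against 16.2 to 60.6 and 9.05 to 33.2 CPM at day 7. The part of such tissue in day 30 levels was not tested. Endothelial markers summed to 10782 to 11939 CPM in wild-type EC and 173 to 351 CPM in wild-type CM at homeostasis, and 10 cardiomyocyte markers to 1115 to 1280.5 CPM in the EC and 58890.2 to 73686 CPM in the CM. Vegfa counts do not check the genotype, because a stop codon need not change them.

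The 250 bases before the RefSeq start sites of 4 genes are shown because Il1b, Il1rn and Nlrp3 had the most alike levels across the groups and Il1a encodes the other IL-1 ligand. They are printed 5′ to 3′ on the strand of the gene and ending at its start site, in build GRCm38.p6, with motif matches in capitals.
Il1a, chr2:129309973-129310222, minus strand: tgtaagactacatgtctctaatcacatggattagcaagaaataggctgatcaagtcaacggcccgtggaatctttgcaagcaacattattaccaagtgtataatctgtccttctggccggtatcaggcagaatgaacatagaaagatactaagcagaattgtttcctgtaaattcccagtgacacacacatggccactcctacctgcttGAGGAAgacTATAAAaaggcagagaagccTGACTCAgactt
Il1b, chr2:129371140-129371389, minus strand: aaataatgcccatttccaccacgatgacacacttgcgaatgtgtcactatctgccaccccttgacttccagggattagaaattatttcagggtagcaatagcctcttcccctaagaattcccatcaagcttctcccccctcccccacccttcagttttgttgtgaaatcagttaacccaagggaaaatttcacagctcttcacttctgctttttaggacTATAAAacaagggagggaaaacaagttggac
Il1rn, chr2:24336610-24336859, plus strand: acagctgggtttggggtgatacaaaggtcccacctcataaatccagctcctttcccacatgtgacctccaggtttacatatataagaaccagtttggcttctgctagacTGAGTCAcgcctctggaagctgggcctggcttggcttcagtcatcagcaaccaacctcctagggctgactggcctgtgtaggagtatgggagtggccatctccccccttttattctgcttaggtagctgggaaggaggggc
Nlrp3, chr11:59541319-59541568, plus strand: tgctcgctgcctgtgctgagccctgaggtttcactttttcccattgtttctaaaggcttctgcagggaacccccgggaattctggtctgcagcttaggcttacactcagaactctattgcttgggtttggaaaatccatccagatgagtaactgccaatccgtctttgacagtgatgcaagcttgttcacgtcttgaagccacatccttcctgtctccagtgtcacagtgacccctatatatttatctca
Capitals mark TATAAA in Il1a (bases -32 to -27 from the start) and Il1b (-31 to -26), the AP-1 motif TGANTCA in Il1a (-12 to -6) and Il1rn (-141 to -135), and the PU.1 motif GAGGAA in Il1a (-41 to -36). Among 32851 RefSeq windows of this length, 12.4% hold TATAAA, 6.75% TGANTCA and 23.3% GAGGAA on either strand. The kappaB consensus was in 0.356% of the windows and in none of the 16 windows of the 10 genes, and TTGCNNAA, a CEBP motif held by 9.56%, was in a window of Il1r1, Il33 and Il1rl1. The Nlrp3 window shown holds none of the 5 motifs, and a second Nlrp3 start site has 3 GAGGAA matches. The matches shown do not overlap each other, and a match is a description of the letters only. In the GENCODE vM21 annotation, exons of Il1a, Il1b and Il1rap overlap a gene on the opposite strand (Gm14023, Il1bos and Gm20319), and whether the counting used strand is not given in the sources used here, so that reads of such pairs may be mixed.

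EC 3 days after MI held the highest mean RNA level of 9 of the 10 genes, all but Il33. Both IL-1 ligands, the antagonist, the decoy receptor and the NLRP3 sensor rose by over 6 on the log2 scale. In each genotype 7 of the 10 genes rose by edgeR's quasi-likelihood test at an adjusted p under 0.05. In Q150X EC this stands beside 18.7% of the 18223 genes tested, and in wild-type EC beside 6.71%. The median log2 fold change of the 10 genes was 6.16 in Q150X and 6.06 in wild type, and that of all genes 0.07 and 0.01.

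Il1b (ENSMUSG00000027398, chromosome 2), the inducible IL-1 ligand, had 2498 and 235 CPM in Q150X EC at day 3, against 18.7, 6.59 and 7.36 CPM in Q150X EC at homeostasis. In wild-type EC it had 1604 and 1574 CPM at day 3, against 10.2, 14.8 and 11.5 CPM at homeostasis. Groups of the same genotype did not overlap, and the low day 3 library was Q150X number 2. The log2 fold change was 7.47 ± 1.13 (SE) in Q150X EC and 7.18 ± 1.12 in wild-type EC, with edgeR adjusted p = 0.00294 and 0.00673. Il1a (ENSMUSG00000027399, chromosome 2), the ligand released by damaged cells, had 430.1 and 27.2 CPM in Q150X EC at day 3, against 3.54, 1.37 and 2.12 CPM at homeostasis. In wild type it had 228 and 321 CPM at day 3, against 1.96, 3.30 and 1.75 CPM. Again no day 3 library reached down to homeostasis, and Q150X number 2 was the lowest of the 4. The log2 fold change was 7.12 ± 1.2 in Q150X EC and 7.03 ± 1.19 in wild-type EC, with edgeR adjusted p = 0.00431 and 0.00943.

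Il1rn (ENSMUSG00000026981, chromosome 2), which encodes the receptor antagonist, had 492 and 55.3 CPM in Q150X EC at day 3, against 6.95, 1.31 and 4.69 CPM at homeostasis. Wild-type EC had 232 and 329 CPM at day 3, against 1.23, 5.30 and 3.59 CPM. The antagonist rose with the ligand: its log2 fold change was 6.46 ± 1.21 in Q150X (edgeR adjusted p = 0.00627) and 6.53 ± 1.21 in wild type (0.0134). Its CPM was 0.197 to 0.236 of that of Il1b in Q150X EC at day 3, against 0.199 to 0.637 at homeostasis, and 0.145 to 0.209 in wild-type EC at day 3, against 0.121 to 0.357. These ranges of the antagonist relative to the ligand overlapped within each genotype.

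Il1r2 (ENSMUSG00000026073, chromosome 1), the decoy receptor, had 108 and 19.3 CPM in Q150X EC at day 3, against 0.581, 0.268 and 0.221 CPM at homeostasis. The wild-type EC held 136 and 63.1 CPM at day 3, against 0.448, 0.378 and 0.464 CPM. All 4 day 3 libraries were above all 6 of homeostasis, and the log2 fold change, 7.93 ± 0.99 in Q150X (edgeR adjusted p = 0.00137) and 7.99 ± 0.99 in wild type (0.00280), was the largest among the 10 genes in both genotypes. The signalling receptor Il1r1 (ENSMUSG00000026072, chromosome 1) did not follow: it had 62.0 and 20.6 CPM in Q150X EC at day 3, against 92.4, 96.2 and 87.5 CPM at homeostasis. In wild-type EC it had 115 and 139 CPM at day 3, against 110.4, 105 and 103 CPM. By CPM, day 3 values were thus all below homeostasis in Q150X and all above it in wild type. The test also applies TMM factors, which were 0.703 and 1.310 in Q150X EC numbers 1 and 2 at day 3. Scaled by the TMM factor of each library, the Q150X groups overlapped and the wild-type groups did not. Neither difference passed, with log2 fold changes of -0.79 ± 0.55 in Q150X (edgeR adjusted p = 0.295) and 0.42 ± 0.53 in wild type (0.677). The CPM ratio of decoy to signalling receptor was 0.938 to 1.75 in Q150X EC at day 3, against 0.00252 to 0.00629 at homeostasis, and 0.452 to 1.18 in wild-type EC at day 3, against 0.00361 to 0.00451.

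Il1rap (ENSMUSG00000022514, chromosome 16), the shared accessory chain, had 38.0 and 20.9 CPM in Q150X EC at day 3, against 16.7, 15 and 16 CPM at homeostasis. Wild-type EC had 36.9 and 35.2 CPM at day 3, against 18, 17.9 and 17.2 CPM. By CPM, day 3 was above homeostasis in every library. The TMM factor of 1.310 lowers Q150X number 2 at day 3 in the test, and scaled by TMM factors the Q150X groups overlapped. For Il1rap the log2 fold change was 1.17 ± 0.40 in Q150X, where edgeR's adjusted p, 0.05 after rounding, did not pass. In wild type it was 1.18 ± 0.40 (0.104). By DESeq2 Il1rap passed in both, with 1.2 in Q150X (adjusted p = 0.0158) and 1.15 in wild type (0.0431).

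The nuclear alarmin Il33 (ENSMUSG00000024810, chromosome 19) had 20.9 and 4.84 CPM in Q150X EC at day 3, against 6.67, 6.70 and 6.74 CPM at homeostasis. The wild-type EC held 28.7 and 38.4 CPM at day 3, against 7.98, 11.8 and 11.2 CPM. Groups overlapped in Q150X and not in wild type, and neither difference passed the edgeR test (log2 fold change 1.35 ± 0.65 in Q150X, adjusted p = 0.136, and 1.86 ± 0.64 in wild type, 0.116), while DESeq2 called it in wild type (1.83, adjusted p = 0.035). Il1rl1 (ENSMUSG00000026069, chromosome 1), which encodes the IL-33 receptor ST2, had 11.1 and 4.84 CPM in Q150X EC at day 3, against 1.11, 0.375 and 0.575 CPM at homeostasis, and 5.97 and 8.42 CPM in wild-type EC at day 3, against 0.392, 0.865 and 0.439 CPM. Groups did not overlap, and it rose by 3.87 ± 0.68 (log2) in Q150X (edgeR adjusted p = 0.00516) and by 3.82 ± 0.69 in wild type (0.0118).

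Il18 (ENSMUSG00000039217, chromosome 9), the other ligand matured by caspase-1, had 8.69 and 3.19 CPM in Q150X EC at day 3, against 0.0554, 0.241 and 0.0884 CPM at homeostasis. In wild-type EC it had 4.6 and 3.31 CPM at day 3, against 0, 0.108 and 0.155 CPM. It rose by 5.85 ± 0.96 in Q150X (edgeR adjusted p = 0.00393) and by 5.58 ± 0.98 in wild type (0.0109), on the log2 scale. Nlrp3 (ENSMUSG00000032691, chromosome 11), the inflammasome sensor, had 636 and 51.6 CPM in Q150X EC at day 3, against 5.26, 1.98 and 3.03 CPM at homeostasis. Wild-type EC had 521 and 577 CPM at day 3, against 2.91, 3.46 and 3.59 CPM. Neither gene had overlapping groups, and Nlrp3 rose by 7.15 ± 1.11 in Q150X (edgeR adjusted p = 0.00322) and by 7.52 ± 1.13 in wild type (0.00594).

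**Figure D1:**
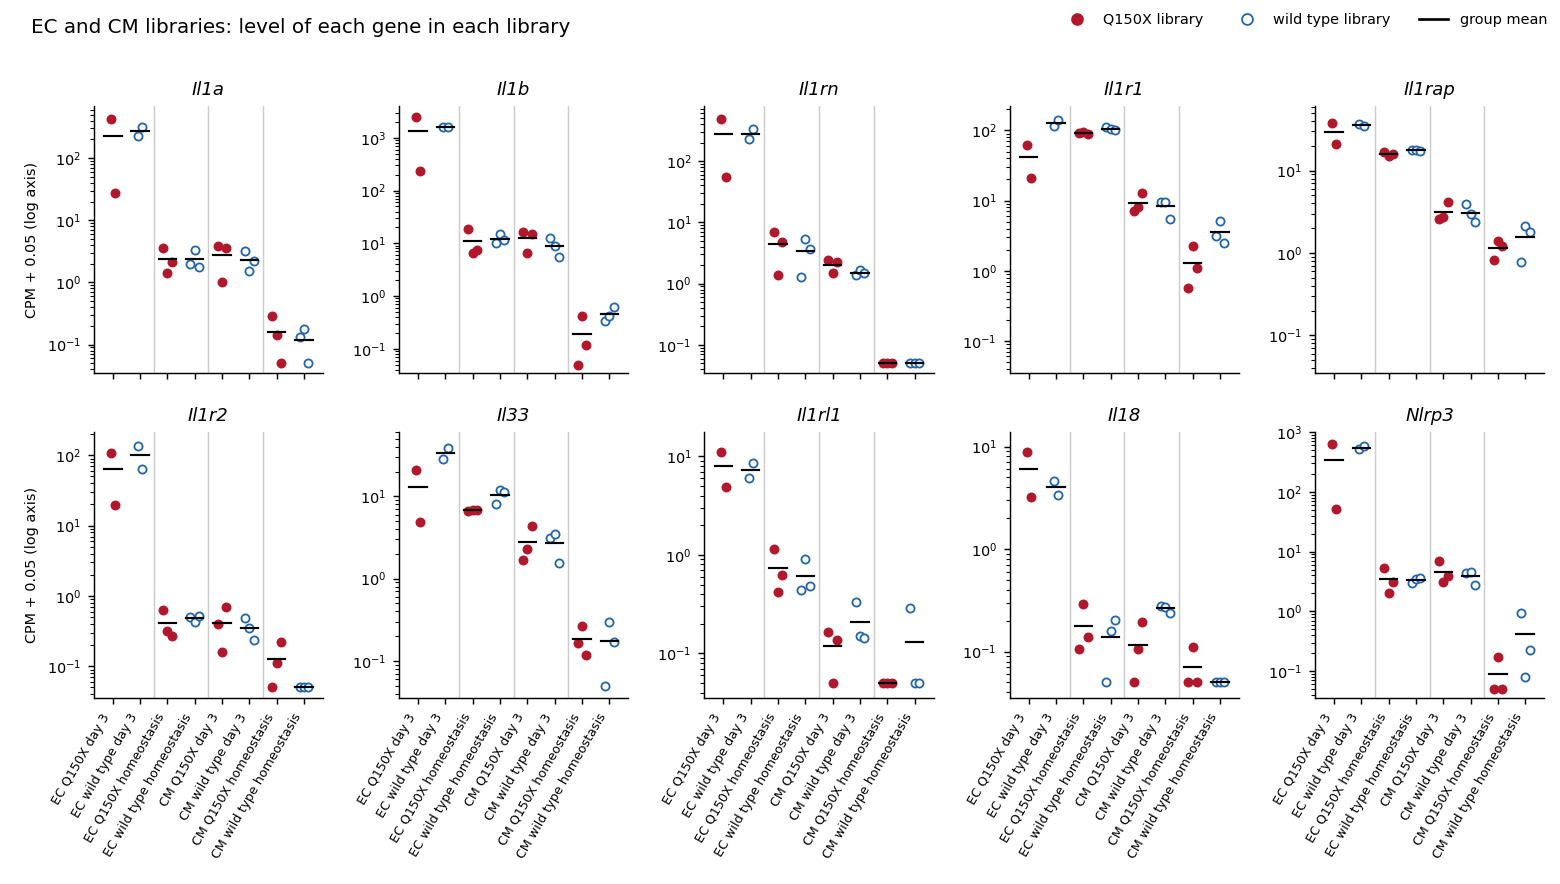
Levels of the 10 genes in each EC and CM library (CPM plus 0.05, log axis), day 3 left of homeostasis; filled red points are Q150X, open blue points wild type, and bars are group means. In EC at day 3 Il1b lies between 235 and 2498 CPM, and Q150X number 2 is the lower Q150X point of EC at day 3 in every panel.

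Leukocyte markers moved with these genes in EC. The 11 monocyte and macrophage markers summed to 3462 to 4426 CPM in Q150X EC at day 3, against 90.2 to 193 CPM at homeostasis. In wild-type EC they summed to 2649 to 3328 CPM at day 3, against 133 to 169.8 CPM. This list includes Ptprc, which had 2557 CPM in Q150X EC number 2 at day 3 and 379 CPM in number 1. Csf1r of the same list ranged from 101 to 397 CPM in these Q150X libraries. Their sums are therefore not read as like amounts of macrophage RNA. In each genotype 11 of 11 rose, beside 18.7% of all genes in Q150X and 6.71% in wild type. The 10 neutrophil markers summed to 989 and 113 CPM in the 2 Q150X libraries at day 3, against 2.67 to 6.26 CPM at homeostasis. In wild type they summed to 514 to 649 CPM at day 3, against 3.56 to 5.19 CPM. Beside the same shares of all genes, 8 of 10 rose in Q150X and 6 of 10 in wild type. Endothelial markers summed to 1147 to 3144 CPM in Q150X EC and 6205 to 6400.1 CPM in wild-type EC at day 3, against at least 10400.3 CPM at homeostasis. The part of these cells in the rise of the 10 genes was not tested, and in bulk samples more cells of a type and more RNA per cell cannot be told apart. The level of Il1b relative to the pan-leukocyte gene Ptprc was 6.60 and 0.0918 in Q150X EC numbers 1 and 2 at day 3 and 5.92 to 7.15 in wild-type EC at day 3, against 0.337 to 0.879 in Q150X EC and 0.371 to 0.635 in wild-type EC at homeostasis.

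**Figure D2:**
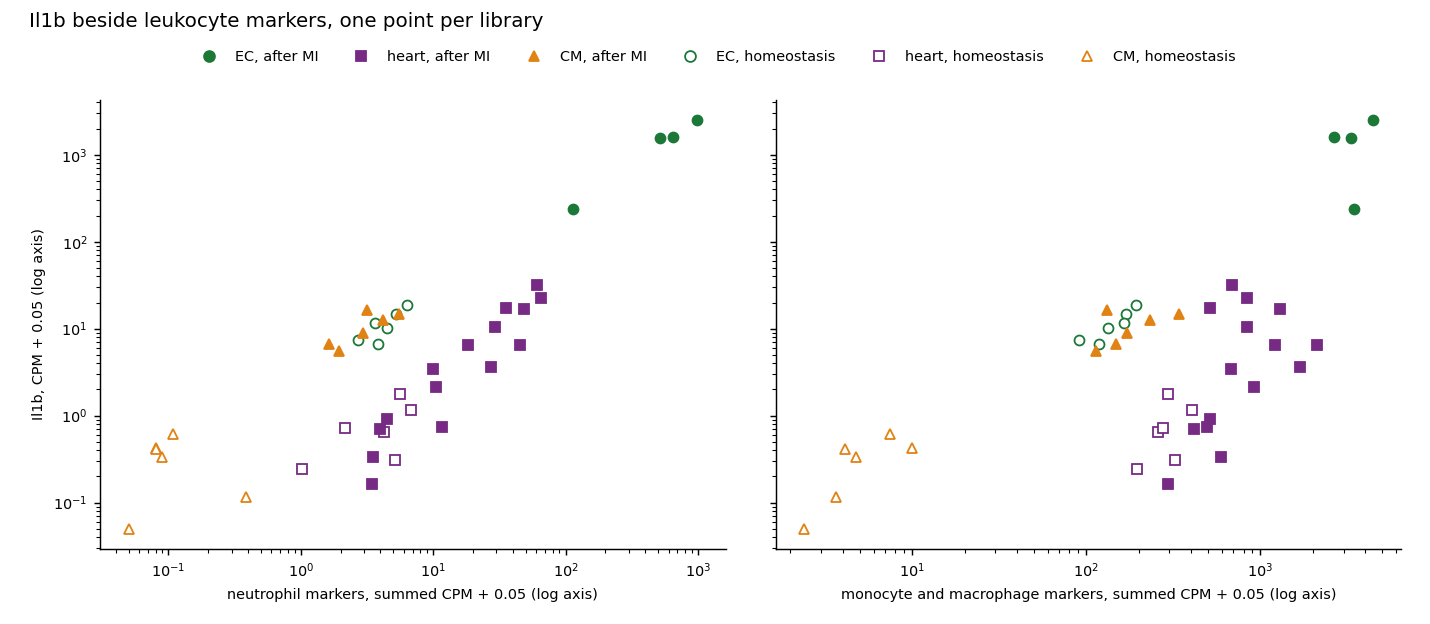
Il1b CPM against the summed CPM of the neutrophil markers and of the monocyte and macrophage markers, log axes, 1 point per library (43 libraries); symbols give EC, hearts and CM, filled after MI and open at homeostasis. EC at day 3 lie at the upper right with Il1b of at least 235 CPM, and CM at homeostasis at the lower left.

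Without Q150X number 2, whose spread also enters the other EC comparisons, 9 of the 10 genes rose in Q150X EC, beside 18.9% of genes, and Il33 was among them with a log2 fold change of 2.16 (edgeR adjusted p = 5.7e-06). In that fit all 10 rose in wild-type EC, beside 19.2%, with Il1r1 at 0.41 (adjusted p = 0.0115), Il1rap at 1.17 (6.0e-06) and Il33 at 1.85 (5.3e-06). With number 2 as the lone Q150X library in place of number 1, and its variation taken from the other groups, 7 of the 10 genes rose, beside 29.0% of genes. Il1r1 and Il33 then fell, with log2 fold changes of -2.54 and -0.85 (edgeR adjusted p = 4.6e-08 and 0.0141), beside 30.1%. Other libraries also moved the wild-type count of 7, which was 4 without wild-type homeostasis number 1 or 3. The share over all genes in these fits is not given here, so this count cannot be read alone.

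CM 3 days after MI also had higher levels of IL-1 genes than at homeostasis, with Il1b, Il1a and Nlrp3 near their levels in resting EC. Of the 10 genes, 8 passed the filter on low counts in CM, and Il1rl1 and Il18 did not. In Q150X CM 7 of these 8 rose, beside 14.9% of the 15169 genes tested, and in wild-type CM 6 rose, beside 10.1%. Il1rn in both genotypes and Il1r2 in wild type were at 0 in all libraries of homeostasis, so that their fitted fold changes have no fixed size. With these genes at their lower bound, taken on counts scaled as in the test, the median log2 fold change of the 8 genes was 4.01 in Q150X and 3.38 in wild type, and that of all genes -0.00 and -0.01.

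Il1b had 16.5, 6.60 and 14.7 CPM in Q150X CM at day 3, against 0, 0.363 and 0.0670 CPM at homeostasis. In wild-type CM it had 12.5, 8.94 and 5.52 CPM at day 3, against 0.280, 0.374 and 0.562 CPM. Il1a had 3.83, 0.962 and 3.47 CPM in Q150X CM at day 3, against 0.235, 0.0908 and 0 CPM, and 3.18, 1.45 and 2.20 CPM in wild-type CM at day 3, against 0.0799, 0.125 and 0 CPM. Both ligands were thus higher in all 6 libraries of day 3 than in all 6 of homeostasis. Il1b rose by 6.02 ± 0.63 (log2) in Q150X (edgeR adjusted p = 7.9e-05) and by 4.10 ± 0.55 in wild type (5.5e-04), and Il1a by 4.41 ± 0.78 (0.00106) and 4.70 ± 0.83 (0.00199).

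The antagonist Il1rn had 0 counts in all 6 CM libraries of homeostasis. At day 3 it had 2.35, 1.43 and 2.17 CPM in Q150X CM and 1.35, 1.6 and 1.44 CPM in wild-type CM, at least 15.9-fold higher in Q150X and at least 11.8-fold higher in wild type than a floor of 3 counts per library (edgeR adjusted p = 4.9e-05 and 1.2e-04). The decoy Il1r2 had 0.349, 0.110 and 0.637 CPM in Q150X CM at day 3, against 0, 0.0605 and 0.168 CPM, and 0.429, 0.3 and 0.189 CPM in wild-type CM at day 3, against 0 in all 3 libraries. Groups overlapped in Q150X, where Il1r2 did not pass (log2 fold change 1.88 ± 0.94, edgeR adjusted p = 0.157), and in wild type it was at least 2.44-fold higher at day 3 (0.0193).

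Among the receptor genes, Il1r1 had 6.97, 8.11 and 12.7 CPM in Q150X CM at day 3, against 0.509, 2.21 and 1.04 CPM at homeostasis. In wild-type CM it had 9.50, 9.62 and 5.47 CPM at day 3, against 3.08, 5.02 and 2.45 CPM. Day 3 did not overlap homeostasis in either genotype, and Il1r1 rose by 2.56 ± 0.46 in Q150X (edgeR adjusted p = 0.00179) but did not pass in wild type at 0.87 ± 0.42 (0.180). Il1rap had 2.53, 2.69 and 4.17 CPM in Q150X CM at day 3, against 0.783, 1.36 and 1.17 CPM, and 3.86, 2.95 and 2.34 CPM in wild-type CM at day 3, against 0.719, 2.09 and 1.77 CPM. By CPM the groups of Il1rap did not overlap either, but scaled by TMM factors those of wild type did. It rose by 1.21 ± 0.38 in Q150X (edgeR adjusted p = 0.0268) and stood at 0.64 ± 0.37 in wild type (0.255). Whether the genotypes differ in these changes is given with the genotype comparison.

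Il33 had 1.63, 2.25 and 4.34 CPM in Q150X CM at day 3, against 0.117, 0.212 and 0.0670 CPM at homeostasis, and 3.06, 3.40 and 1.51 CPM in wild-type CM at day 3, against 0, 0.249 and 0.118 CPM. Nlrp3 had 6.83, 3.05 and 3.85 CPM in Q150X CM at day 3, against 0, 0.121 and 0 CPM, and 4.41, 4.42 and 2.70 CPM in wild-type CM at day 3, against 0.879, 0.0312 and 0.177 CPM. Neither gene had overlapping groups. Il33 rose by 4.03 ± 0.64 in Q150X (edgeR adjusted p = 4.6e-04) and 3.98 ± 0.64 in wild type (8.8e-04). Nlrp3 rose by 6.29 ± 0.92 in Q150X (edgeR adjusted p = 4.8e-04) and 3.21 ± 0.69 in wild type (0.00784). In CM at homeostasis Il33 and Il1a, and in Q150X also Il1b and Nlrp3, lay near the floor of 3 counts per library. The size of these fold changes is therefore uncertain. Il18 had 0, 0.0550 and 0.145 CPM in Q150X CM at day 3, against at most 0.0605 CPM at homeostasis, and 0.229, 0.225 and 0.189 CPM in wild-type CM at day 3, against 0 in all 3 libraries. Il1rl1 reached at most 0.286 CPM in any CM library.

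Markers of leukocytes moved in CM as well. The 11 monocyte and macrophage markers summed to 132 to 342 CPM in Q150X CM at day 3, against 2.35 to 4.06 CPM at homeostasis. In wild-type CM they summed to 114 to 231 CPM at day 3, against 4.71 to 9.91 CPM. In Q150X 10 of 11 rose, beside 14.9% of all genes, and in wild type 11 of 11, beside 10.1%. The 10 neutrophil markers summed to 1.59 to 5.44 CPM in Q150X CM at day 3, against 0 to 0.335 CPM with 7 of 10 at 0, and to 1.89 to 4.12 CPM in wild-type CM at day 3, against 0.0312 to 0.0591 CPM with 8 of 10 at 0. Their part in the rise of the IL-1 genes in CM was not tested.

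In hearts the signalling receptor Il1r1 was higher at both times after MI in both genotypes, and the ligand Il1b and the sensor Nlrp3 passed the test at day 30 and not at day 7. At day 7, 6 of the 10 genes were higher than at homeostasis in Q150X hearts, beside 13.8% of the 17845 genes tested, and 1 in wild-type hearts, beside 7.65%. At day 30, 8 were higher in Q150X, beside 15.6%, and 5 in wild type, beside 5.45%. The median log2 fold change of the 10 genes was 1.42 in Q150X and 0.68 in wild type at day 7, and 3.17 and 2.89 at day 30, while that of all genes lay between -0.03 and 0.06.

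Il1r1 had 9.95, 25 and 20.8 CPM in Q150X hearts at homeostasis, 44.8, 37.1, 34.7 and 32.2 CPM at day 7 and 49.1, 42.6, 40.4 and 31.3 CPM at day 30. In wild-type hearts it had 20.6, 15.9 and 22.9 CPM at homeostasis, 40.0, 35, 24.1 and 46.5 CPM at day 7 and 33, 45.6 and 42.1 CPM at day 30. All hearts after MI were above all hearts of the same genotype at homeostasis. The log2 fold change over homeostasis was 0.79 ± 0.23 at day 7 and 0.89 ± 0.24 at day 30 in Q150X (edgeR adjusted p = 0.0178 and 0.00792), and 0.81 ± 0.23 and 1.02 ± 0.25 in wild type (0.0264 and 0.0166). Il1rap had 2.50 to 3.49 CPM in Q150X hearts at homeostasis, 5.04 to 8.54 CPM at day 7 and 7.19 to 11 CPM at day 30, without overlap with homeostasis. Wild-type hearts had 3.05 to 6.71 CPM at homeostasis, 4.47 to 8.37 CPM at day 7 and 4.47 to 6.92 CPM at day 30, which overlap. It rose in Q150X by 0.98 ± 0.24 at day 7 and 1.23 ± 0.24 at day 30 (edgeR adjusted p = 0.00567 and 0.00119), and stood at 0.32 ± 0.25 at day 30 in wild type (0.423).

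Il1b had 0.260, 1.74 and 0.195 CPM in Q150X hearts at homeostasis, 2.06, 6.41, 0.286 and 0.869 CPM at day 7 and 3.60, 16.7, 6.49 and 31.6 CPM at day 30. The wild-type hearts held 1.12, 0.602 and 0.679 CPM at homeostasis, 0.654, 3.35, 0.112 and 0.685 CPM at day 7 and 17.2, 10.4 and 22.3 CPM at day 30. Day 7 overlapped homeostasis and day 30 did not. At day 30 Il1b rose by 4.08 ± 1.13 over homeostasis in Q150X (edgeR adjusted p = 0.0121) and by 4.40 ± 1.18 in wild type (0.0284). Set against day 7, day 30 was higher by 2.59 ± 0.91 in Q150X (0.0390) and by 3.93 ± 1.01 in wild type (0.00829), with overlap of the Q150X groups only. In this comparison of the times, 2 of the 10 genes were called higher in Q150X, beside 14.9%, and 3 in wild type, beside 13.9%, with none called lower. Il1a stayed at or below 1.36 CPM in all hearts. It had 0.128, 0, 0.480 and 0.684 CPM in Q150X and 0.680, 1.06 and 1.25 CPM in wild type at day 30, and did not pass edgeR's test in hearts of either genotype at either time. In wild type at day 30 its log2 fold change was 3.28 by edgeR, and by DESeq2 it passed (3.32, adjusted p = 0.0421), as it did by edgeR without the libraries that stood apart (4.58, 0.0229).

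Nlrp3 had 0.553, 0.841 and 0.162 CPM in Q150X hearts at homeostasis, 1.39, 2.94, 0.698 and 0.802 CPM at day 7 and 1.99, 3.69, 3.90 and 10.1 CPM at day 30. In wild-type hearts it had 0.655, 0.283 and 0.905 CPM at homeostasis, 0.862, 1.27, 0.503 and 0.498 CPM at day 7 and 11, 4.86 and 19.3 CPM at day 30. Only the day 30 groups lay apart from homeostasis. Nlrp3 rose at day 30 by 2.98 ± 0.70 over homeostasis in Q150X (edgeR adjusted p = 0.00389) and by 4.28 ± 0.75 in wild type (0.00180), and over day 7 by 1.72 ± 0.57 (0.0290) and 3.99 ± 0.65 (3.0e-04). Il1rn had at most 0.13 CPM at homeostasis, 1.10, 3.94, 0.571 and 0.401 CPM at day 7 and 3.66, 3.11, 2.65 and 2.09 CPM at day 30 in Q150X hearts. Wild-type hearts had at most 0.142 CPM at homeostasis, 0.387, 0.636, 0.112 and 0.436 CPM at day 7 and 5.98, 2.42 and 17.0 CPM at day 30. Groups after MI lay above homeostasis except in wild type at day 7. The antagonist rose in Q150X hearts by 4.24 ± 1.03 at day 7 and 5.15 ± 1.03 at day 30 (edgeR adjusted p = 0.00541 and 0.00134), and in wild-type hearts by 6.78 ± 1.07 at day 30 (8.7e-04), with 2.25 ± 1.09 at day 7 (0.178). Between day 30 and day 7 it rose in wild type by 4.53 ± 0.78 (edgeR adjusted p = 5.2e-04).

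Il33 had 4.32, 1.68 and 0.811 CPM in Q150X hearts at homeostasis, 19.3, 26.4, 9.39 and 9.59 CPM at day 7 and 69.1, 50.3, 46.4 and 19.6 CPM at day 30. The wild-type hearts held 10.6, 2.09 and 1.32 CPM at homeostasis, 17.4, 8.07, 3.55 and 22.4 CPM at day 7 and 16.8, 31.1 and 21.6 CPM at day 30. The highest value at homeostasis in each genotype came from the library with atrial markers. Il33 rose in Q150X by 2.58 ± 0.76 at day 7 and 4.07 ± 0.81 at day 30 (edgeR adjusted p = 0.0193 and 0.00150). In wild type it stood at 1.44 ± 0.72 at day 7 and 2.35 ± 0.76 at day 30 (0.194 and 0.0604), and without the libraries that stood apart at 2.41 and 3.70, where it passed (edgeR adjusted p = 0.0492 and 0.00356). With same-numbered hearts of homeostasis as pairs it passed in wild type at day 7 (1.96, edgeR adjusted p = 0.0318) and at day 30 (2.88, 0.00597), and by DESeq2 at day 30 (2.34, 0.0227). Its receptor Il1rl1 lay between 0.33 and 2.70 CPM in all hearts, with groups that overlapped at all times, and did not pass the test after MI in either genotype.

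Il18 had 0.13 to 0.436 CPM in Q150X hearts at homeostasis, 0.920 to 3.35 CPM at day 7 and 1.40 to 5.54 CPM at day 30. In wild-type hearts it had 0.113 to 0.425 CPM at homeostasis, 0.279 to 1.21 CPM at day 7 and 1 to 2.66 CPM at day 30. The groups after MI lay above homeostasis except in wild type at day 7. Il18 rose in Q150X by 2.36 ± 0.62 at day 7 and 3.35 ± 0.64 at day 30 (edgeR adjusted p = 0.00877 and 8.6e-04) and in wild type by 2.94 ± 0.66 at day 30 (0.0105). The decoy Il1r2 had at most 0.187 CPM at homeostasis, 1.18, 5.95, 0.349 and 0.535 CPM at day 7 and 1.99, 1.23, 0.192 and 0.792 CPM at day 30 in Q150X hearts. Wild-type hearts had at most 0.142 CPM at homeostasis, 0.416, 0.703, 0.307 and 1.65 CPM at day 7 and 0.107, 0.906 and 0.660 CPM at day 30. Wild-type hearts at day 30 overlapped homeostasis and the other groups after MI did not. Il1r2 rose in Q150X by 4.28 ± 1.2 at day 7 and 3.35 ± 1.19 at day 30 (edgeR adjusted p = 0.0137 and 0.0403), and in wild type it stood at 3.21 ± 1.24 and 2.83 ± 1.30 (0.0916 and 0.164). The call of Il1r2 at day 7 in Q150X was lost without number 2, the library with 5.95 CPM (log2 fold change 2.75, edgeR adjusted p = 0.0674).

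**Figure D3:**
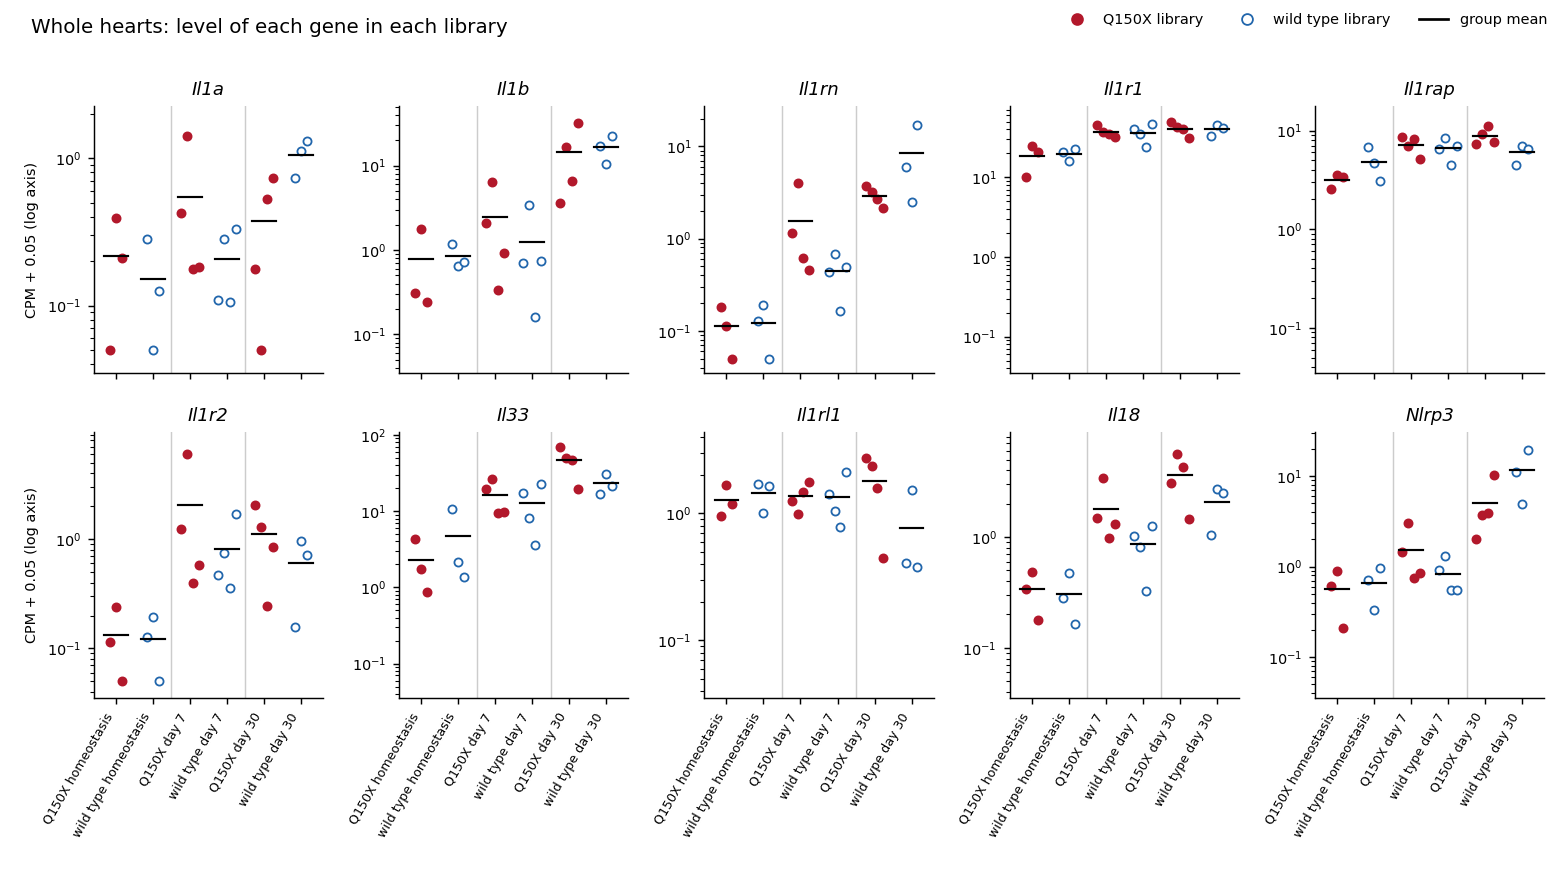
Levels of the 10 genes in each heart library (CPM plus 0.05, log axis) at homeostasis, day 7 and day 30 after MI; filled red points are Q150X, open blue points wild type, and bars are group means. Il1b, Il1rn and Nlrp3 reach their highest heart levels at day 30, and Il1r1 lies between 24.1 and 49.1 CPM after MI.

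The choice of libraries moved some heart counts. A count given below without a share over all genes cannot be read alone. With same-numbered hearts of homeostasis treated as pairs, 4 of the 10 genes were higher at day 7 in wild type (Il1r1, Il1r2, Il33 and Il18), beside 14.5% of genes, and at day 30 Il33 joined the 5. The count at day 7 in wild type was 2 without the libraries that stood apart, where the share over all genes is not given here. It was 0 without wild-type homeostasis number 2, wild-type day 7 number 1 or wild-type day 7 number 4. At day 30 in wild type the count was 3 without wild-type homeostasis number 2 or 3 or wild-type day 30 number 3. It was 7 without the libraries that stood apart, beside 18.7% of all genes, and Il1a and Il33 also passed there. In Q150X hearts, without the libraries that stood apart, Il1r1 and Il1r2 no longer passed at day 7, nor did Il1b and Il1r2 at day 30. The Q150X count of 2 between day 30 and day 7 was 0 without Q150X day 7 number 1, 3 or 4 or Q150X day 30 number 4, 1 without Q150X day 30 number 2 and 4 without Q150X day 7 number 2.

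In hearts the monocyte and macrophage markers summed to 195 to 321 CPM in Q150X hearts at homeostasis, 513 to 1218 CPM at day 7 and 684 to 2108 CPM at day 30. In wild-type hearts they summed to 257 to 406 CPM, 295 to 673 CPM and 516 to 835 CPM at the same times. Of the 11, 7 rose at day 7 and 11 at day 30 in Q150X, beside 13.8% and 15.6% of all genes. In wild type 2 and 3 rose, beside 7.65% and 5.45%. The neutrophil markers summed to 0.973 to 5.55 CPM in Q150X hearts at homeostasis, 3.49 to 45.0 CPM at day 7 and 18.4 to 60.8 CPM at day 30, and to 2.11 to 6.74, 3.38 to 11.7 and 29.1 to 65.6 CPM in wild-type hearts. The ratio of Il1b to Ptprc was 0.0326 to 0.171 in Q150X hearts at homeostasis and 0.0948 to 1.81 at day 30, and 0.0535 to 0.137 in wild-type hearts at homeostasis and 0.802 to 1.17 at day 30. Relative to this leukocyte gene, Il1b at day 30 thus overlapped homeostasis in Q150X and did not in wild type.

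**Figure D4:**
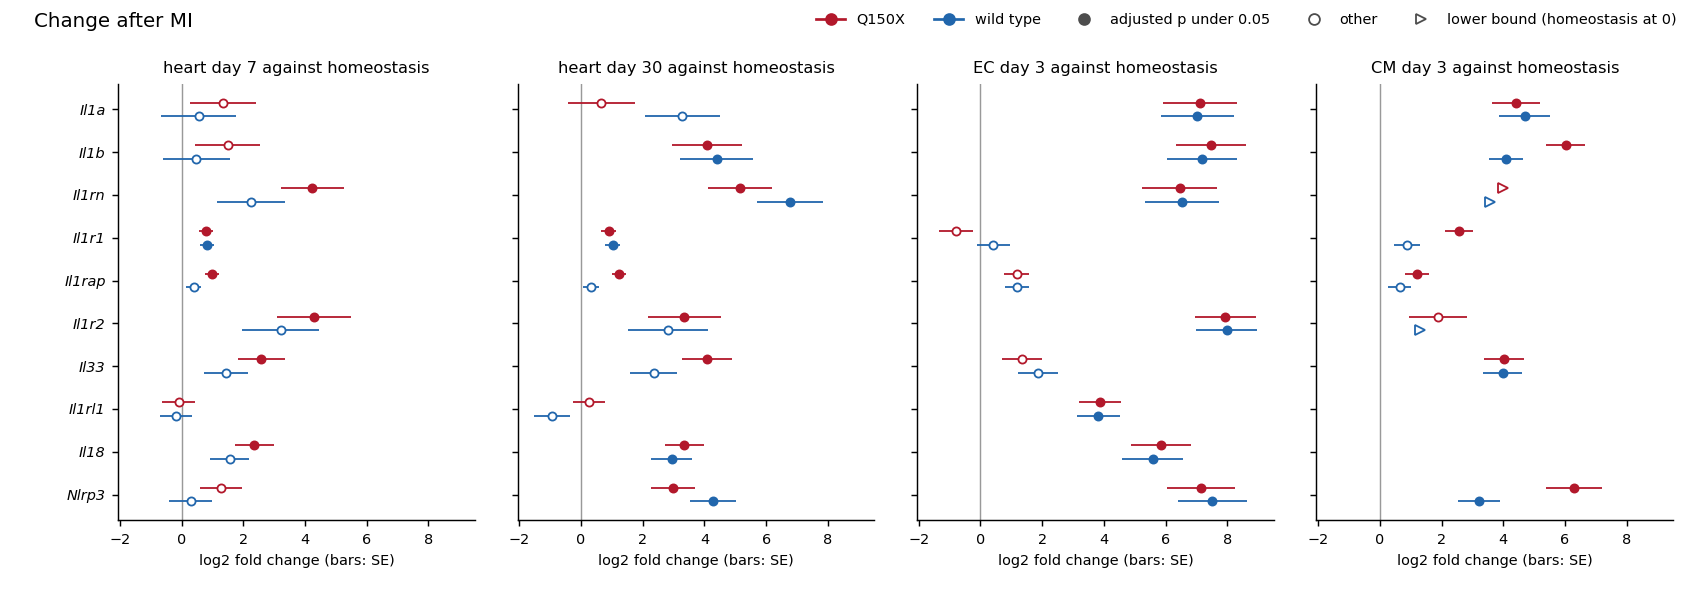
Log2 fold change of each gene after MI over homeostasis, with its SE, in hearts at day 7 and day 30 and in EC and CM at day 3, Q150X above wild type; filled points have an edgeR adjusted p under 0.05 and triangles are lower bounds for genes at 0 at homeostasis. In EC Il1r2 lies at 7.93 in Q150X and 7.99 in wild type, and Il1r1 at -0.79 and 0.42. The changes of Il1rn in CM are known only by their lower bounds. Il1rl1 and Il18 were not tested in CM and have no point there.

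Between genotypes at the same time, none of the 10 genes passed edgeR's test in any compartment. In hearts the count with an unadjusted p under 0.05 was 0 at homeostasis, 1 at day 7 and 2 at day 30, and DESeq2 called 0 at each time. Among all 17845 genes 0% were called at homeostasis, 0% at day 7 and 0.443% at day 30. The gene with the smallest p was Il1rap at homeostasis (log2 fold change -0.51 ± 0.26, edgeR adjusted p = 1), Il1rn at day 7 (1.90 ± 0.72, 1) and again Il1rn at day 30 (-1.72 ± 0.69, 0.277). Il1rn at day 30 overlapped between the genotypes, with 2.09 to 3.66 CPM in Q150X and 2.42 to 17.0 CPM in wild type. Il1rap at day 30 did not overlap, with 7.19 to 11 CPM in Q150X and 4.47 to 6.92 CPM in wild type, and its log2 fold change was 0.40 ± 0.24 (edgeR adjusted p = 0.464).

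In EC at homeostasis 0 of 10 genes were called by edgeR and by DESeq2, beside 0% of genes, with 0 at an unadjusted p under 0.05, and the smallest p was that of Il33 (-0.60 ± 0.59, edgeR adjusted p = 1). At day 3 it was also 0 of 10 by both tools, beside 0%, and 1 had an unadjusted p under 0.05. That gene was Il1r1, with 62.0 and 20.6 CPM in Q150X EC and 115 and 139 CPM in wild-type EC, which do not overlap (log2 fold change -1.39 ± 0.60, edgeR adjusted p = 0.213). Without Q150X number 2 it passed at -0.65 (adjusted p = 0.0282), as 1 of the 10 genes beside 6.04% of all genes. With number 2 as the lone Q150X library, 7 of the 10 were lower, beside 29.7% of all genes, with Il1r1 at -3.15 (edgeR adjusted p = 3.8e-08), Nlrp3 at -3.93 (7.7e-05) and Il1b at -3.27 (0.00362).

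In CM at homeostasis 0 of the 8 tested genes were called by edgeR, beside 0% of genes, 3 had an unadjusted p under 0.05, and DESeq2 called 1. That gene was Il1r1, with 0.509, 2.21 and 1.04 CPM in Q150X CM and 3.08, 5.02 and 2.45 CPM in wild-type CM, which do not overlap. Its log2 fold change was -1.57 ± 0.47 (edgeR adjusted p = 0.219), and DESeq2 gave -1.59 with an adjusted p of 0.0189. At day 3 none of the 8 was called by either tool, beside 0%, with 0 at an unadjusted p under 0.05, and the smallest p was that of Il1b (0.43 ± 0.42, edgeR adjusted p = 1).

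The test of whether the change after MI differed between genotypes called 0 of the 10 genes in hearts at day 7 and day 30, 0 of 10 in EC and 0 of 8 in CM, by edgeR and by DESeq2, beside 0% of genes each time. The counts at an unadjusted p under 0.05 were 0, 1, 0 and 2. The smallest p was that of Il1rap in hearts (a difference in log2 fold change of 0.60 ± 0.33 at day 7 and 0.91 ± 0.35 at day 30, edgeR adjusted p = 1 and 0.445). In EC and CM it was that of Il1r1 (-1.21 ± 0.77, adjusted p = 0.479, in EC and 1.69 ± 0.62, adjusted p = 0.576, in CM). With Q150X EC number 2 as the lone Q150X library of day 3, the change was called lower in Q150X for 7 of the 10 genes, beside 26.8% of genes, with Il1r1 at -2.96 (edgeR adjusted p = 1.9e-07). The rise of Il1r1 in Q150X CM, and its absence among the calls in wild-type CM, did not pass as a difference in this test, and with no filter on low counts it passed (1.69, edgeR adjusted p = 0.0262).

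**Figure D5:**
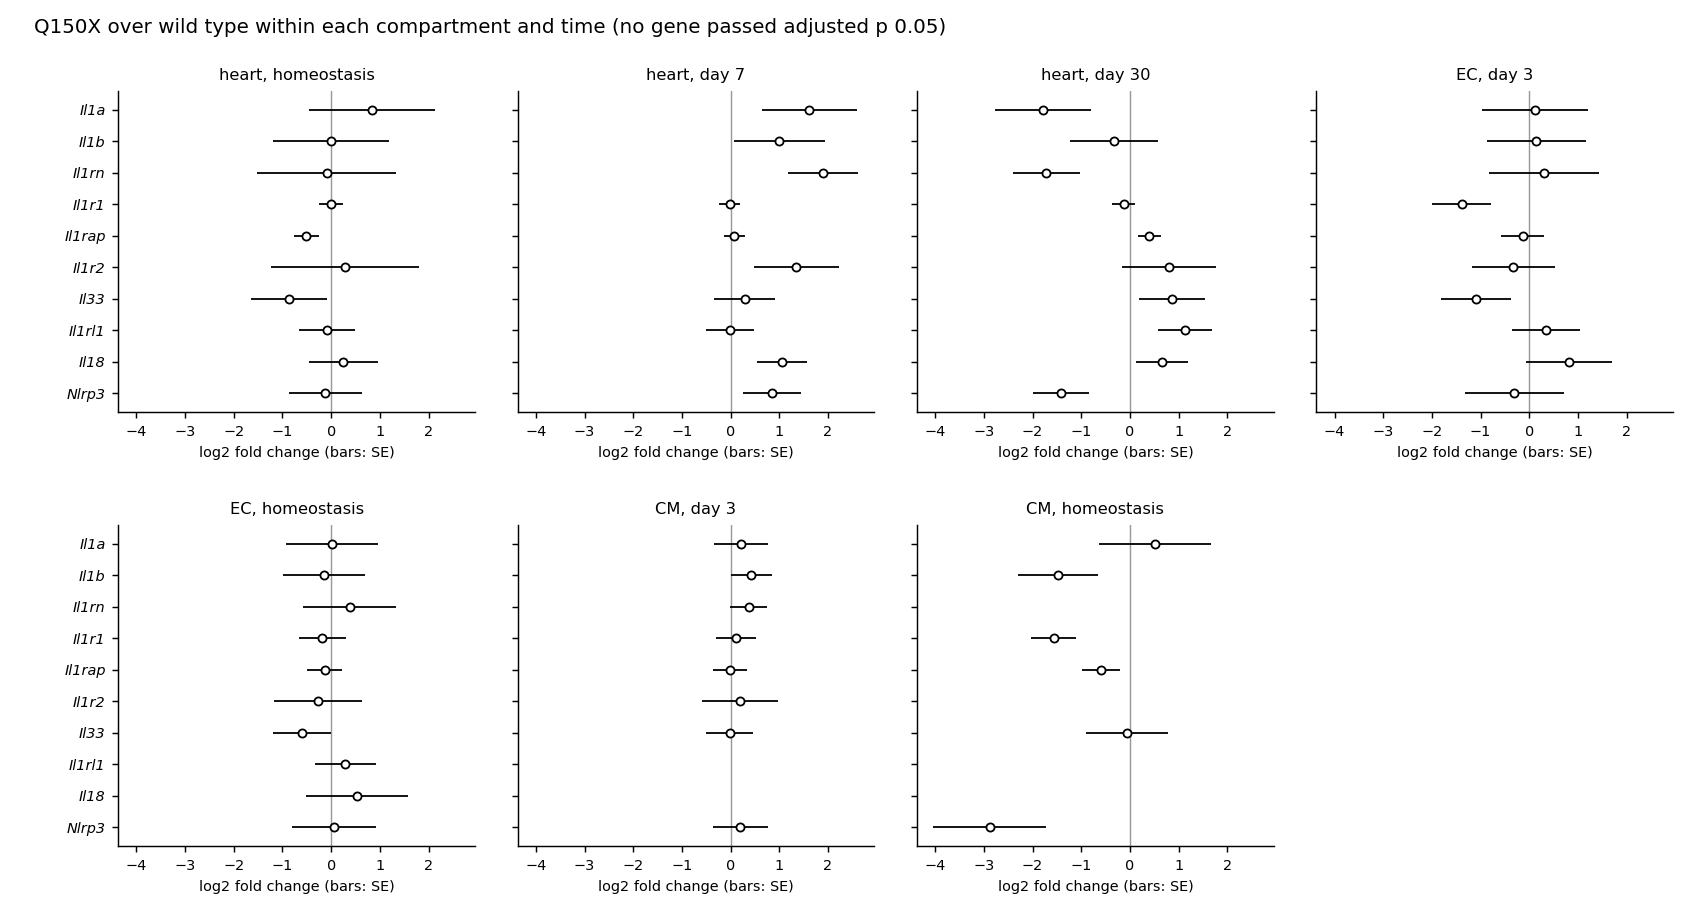
Log2 fold change of Q150X over wild type with its SE for each gene, in hearts at homeostasis, day 7 and day 30, EC at day 3 and homeostasis, and CM at day 3 and homeostasis; no point has an edgeR adjusted p under 0.05. Il1rl1 and Il18 were not tested in CM and have no point there. Il1rn and Il1r2 have none in CM at homeostasis, where all libraries of a group were at 0. Il1rn lies at 1.90 in hearts at day 7 and at -1.72 at day 30.

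The resting tissue was compared across compartments in wild-type libraries, where 9 of the 10 genes passed the filter and Il18 did not. EC held more RNA of IL-1 genes than CM: 8 of the 9 were higher in EC, beside 37.8% of 17617 genes, so that a large share of all genes differed. Il1r1 had 110.4, 105 and 103 CPM in EC and 3.08, 5.02 and 2.45 CPM in CM, and was higher by 3.56 ± 0.40 (edgeR adjusted p = 4.4e-07). By edgeR, Il33 was higher in EC by 4.95 ± 0.87 (adjusted p = 7.8e-05), Il1a by 3.75 ± 1.07 (0.00475), Il1b by 3.56 ± 0.74 (4.0e-04), Il1rap by 2.17 ± 0.34 (2.4e-05) and Nlrp3 by 1.99 ± 0.79 (0.0339). Il1rn was at least 13.4-fold and Il1r2 at least 1.71-fold higher in EC on the scale of the fit, being at 0 in CM. Il1rl1 did not pass by edgeR (1.69 ± 0.92, adjusted p = 0.113), and by DESeq2 it did (1.78, 0.0462). TMM factors in this fit were 1.477 to 1.618 in EC and 0.567 to 0.708 in CM, so that fitted fold changes are smaller than the ratios of CPM.

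Against whole hearts, 6 genes were higher in EC, beside 29.7% of genes, and 1 was lower, beside 31.4%. The 6 were Il1rn (4.81 ± 0.99, edgeR adjusted p = 8.6e-04), Il1a (3.89 ± 1.03, 0.00333), Il1b (3.31 ± 0.71, 6.8e-04), Nlrp3 (1.80 ± 0.76, 0.0494), Il1r1 (1.79 ± 0.37, 4.2e-04) and Il1rap (1.27 ± 0.33, 0.00278). Il1rl1 was the lower one, with 0.392, 0.865 and 0.439 CPM in EC and 1.66, 0.956 and 1.58 CPM in hearts (-1.92 ± 0.73, edgeR adjusted p = 0.0323). CM set against hearts had 3 genes lower, beside 19.3%, namely Il33 (-4.37 ± 0.87, edgeR adjusted p = 0.00108), Il1r1 (-1.77 ± 0.38, 0.00193) and Il1rl1 (-3.60 ± 0.90, 0.00658). Without the resting hearts that stood apart 4 genes were lower, and Il33 joined and Nlrp3 left the genes higher in EC than in hearts. Without wild-type heart number 3 at homeostasis, 5 genes were lower in CM than in hearts. Shares over all genes in these fits with fewer hearts are not given here, so their counts cannot be read alone.

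Across genes, levels were compared as mean CPM per kilobase of exon. In EC at homeostasis the signalling receptor Il1r1 led, with 14.5 CPM per kb in Q150X and 16.7 in wild type, ahead of Il1b (5.71 and 6.37). In EC at day 3 Il1b led with 716 CPM per kb in Q150X and 833 in wild type, followed by Il1a (116 and 139) and Nlrp3 (84.8 and 135), while Il1r1 was at 6.49 and 20. Without number 2, Q150X EC at day 3 had 1309.7 CPM per kb of Il1b, 218 of Il1a, 157 of Nlrp3 and 9.74 of Il1r1, in the same order. Resting hearts were also led by Il1r1 (2.92 CPM per kb in Q150X and 3.11 in wild type). At day 30 Q150X hearts were led by Il33 with 16.1 CPM per kb, ahead of Il1b with 7.64, and wild-type hearts had Il1b at 8.72 and Il33 at 8.03. In CM at day 3 Il1b led with 6.61 CPM per kb in Q150X and 4.71 in wild type.

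The order of the groups by mean CPM put EC at day 3 first for 9 of the genes, and the step from there to the next group was wide for Il1b (1366 CPM in Q150X EC at day 3, against 16.6 CPM in wild-type hearts at day 30) and Nlrp3 (344 against 11.7 CPM), without overlap of the libraries. The 2 genotypes of EC at day 3 overlapped for both genes. Il1r1 was ordered in another way, with 127 ± 16.9 CPM in wild-type EC at day 3, 106 ± 3.92 CPM in wild-type EC at homeostasis, 92.1 ± 4.33 CPM in Q150X EC at homeostasis and 41.3 ± 29.3 CPM in Q150X EC at day 3 (SD, n = 2 at day 3 and 3 at homeostasis), and the libraries of neighbouring groups did not overlap. Il1rap was at 17.7 ± 0.459 CPM in wild-type EC and 15.9 ± 0.846 CPM in Q150X EC at homeostasis, also without overlap, and then at 8.73 ± 1.73 CPM in Q150X hearts at day 30 (SD, n = 4). These orders are by CPM without TMM factors, and how many of all genes separate in this way was not counted. Between genotypes 0% of genes were called by edgeR in EC at homeostasis and at day 3. The orders are therefore not read as a difference between genotypes.

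Over the 14 group means, on the log2(CPM + 0.5) scale and among 12721 genes, the pattern most like that of Il1b was that of Nlrp3 (Pearson r 0.991), then Il1rn (0.987) and the chemokine gene Ccl3 (0.985). Il1a was most like Lif (0.992), Il10 (0.98) and Ccl3 (0.979), and Il1r2 most like the myeloid genes Sirpb1b (0.995), Pira2 (0.991) and Trem1 (0.989), of which Sirpb1b and Pira2 belong to families with close copies and are uncertain. Il1r1 was most like Gprc5b (0.987), Gab2 (0.986) and Cmtm3 (0.984), Il1rap like Sgms2 (0.99), and Il33 like Scpep1 (0.974). Il1rl1 was most like Rasgrp4 (0.973) and Il18 like Slpi (0.975). Among the 10 genes the lowest likeness was that of Il1a and Il33 (0.40). Without the libraries that stood apart, 18 of the 30 genes that were the 3 most like each member were again among them, and the most like gene was the same for 6 of the 10, all but Il1rap, Il33, Il1rl1 and Il18. These values are descriptions over groups that share compartments.

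Other genes of the IL-1 pathway were read in 4 lists. Of 8 further family genes found by symbol, out of a longer list, 5 were tested in EC and hearts. Listed symbols without a match were not read, whatever their level. Il18rap, the accessory chain of the IL-18 receptor, rose in EC at day 3 by 6.12 ± 0.62 in Q150X (edgeR adjusted p = 5.2e-04) and 5.57 ± 0.61 in wild type (0.00162). Il18r1, the ligand-binding chain, rose by 4.09 ± 0.57 (0.00215) and 3.80 ± 0.58 (0.00613), and the IL-36 receptor gene Il1rl2 by 1.76 ± 0.24 (0.00173) and 1.23 ± 0.24 (0.0146). Thus 3 of 5 rose in each genotype, beside 18.7% of all genes in Q150X and 6.71% in wild type. In hearts at day 30, 3 of 5 rose in Q150X, beside 15.6% of all genes, and 2 in wild type, beside 5.45%, with Il18r1 at 4.78 ± 0.83 in Q150X (edgeR adjusted p = 4.9e-04) and 3.46 ± 0.80 in wild type (0.0129). Without the libraries that stood apart, 3 of 5 rose and 1 fell in EC of each genotype, with Il18rap at 6.8 in Q150X. Among all genes 18.9% rose and 18.6% fell in Q150X EC in that fit, and 19.2% and 16.5% in wild-type EC. Without such libraries 3 of 5 also rose in hearts at day 30 in each genotype, beside 23.6% of all genes in Q150X and 18.7% in wild type. Il18r1 was at 5.05 in Q150X and 4.56 in wild type.

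Of 19 inflammasome and pyroptosis genes, 12 rose and 1 fell in Q150X EC at day 3, beside 18.7% of all genes higher and 15.1% lower, and 6 rose in wild-type EC, beside 6.71% (median log2 fold change 1.65 and 0.83). Without Q150X EC number 2, 15 rose and 1 fell in Q150X, beside 18.9% and 18.6%, and 12 rose and 2 fell in wild type, beside 19.2% and 16.5%. Pycard, the adaptor that links sensor and caspase-1, rose by 3.96 ± 0.26 in Q150X (edgeR adjusted p = 6.4e-05) and 2.10 ± 0.25 in wild type (0.00244), and passed without number 2 at 3.84 and 2.09. In CM at day 3, 9 of 16 rose in Q150X, beside 14.9%, and 4 in wild type, beside 10.1%, among them Casp8 by 2.17 ± 0.34 (edgeR adjusted p = 3.4e-04) and 1.07 ± 0.32 (0.0311). The median in CM was 1.88 in Q150X and 1.23 in wild type, with genes at 0 at homeostasis set at their lower bound. In Q150X hearts 11 of 18 rose at day 7, beside 13.8%, and 9 at day 30, beside 15.6%. In wild-type hearts 5 rose at day 7, beside 7.65%, and 3 at day 30, beside 5.45%. Without the libraries that stood apart, 8 rose in Q150X and 6 in wild type at day 7, where the shares over all genes are not given here. At day 30 in that fit 6 rose and 2 fell in Q150X, beside 23.6% and 20.7%, and 4 rose in wild type, beside 18.7%. Panx1, a membrane channel, rose at day 30 by 2.62 ± 0.39 in Q150X (edgeR adjusted p = 1.7e-04) and 2.50 ± 0.40 in wild type (8.8e-04), and Gsdmd, the pore protein of pyroptosis, by 1.32 ± 0.25 (7.8e-04) and 0.83 ± 0.26 (0.0480).

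Of the 20 genes that relay the signal of IL-1 receptors, 5 rose and 1 fell in Q150X EC at day 3, beside 18.7% of all genes higher and 15.1% lower, and 1 rose in wild-type EC, beside 6.71% (median 0.41 and 0.02). These counts are near the shares over all genes. Without Q150X EC number 2, 9 rose and 2 fell in Q150X, beside 18.9% and 18.6%, and 6 rose and 4 fell in wild type, beside 19.2% and 16.5%. The feedback inhibitor Tnfaip3 rose in both genotypes, by 2.64 ± 0.24 in Q150X (edgeR adjusted p = 3.2e-04) and 1.79 ± 0.24 in wild type (0.00359). In CM at day 3, 4 rose and 1 fell in Q150X, beside 14.9% and 12.1%, and 3 rose and 1 fell in wild type, beside 10.1% and 7.22% (median 0.17 and -0.01), with the inhibitor Nfkbia higher by 1.5 ± 0.15 (edgeR adjusted p = 1.5e-05) and 0.73 ± 0.15 (0.00342). In hearts at day 30, 6 rose and 6 fell in Q150X, beside 15.6% and 14.2%, and 7 rose and 2 fell in wild type, beside 5.45% and 3.49% (median 0.09 and 0.14). Without the libraries that stood apart, 7 rose and 8 fell in Q150X, beside 23.6% and 20.7%, and 8 rose and 4 fell in wild type, beside 18.7% and 15.3%. Between genotypes at day 30 the kinase gene Irak2 was lower in Q150X hearts (log2 fold change -1.29 ± 0.29, edgeR adjusted p = 0.0496), as 1 of 20 beside 0.291%, and without those libraries 4 of 20 were lower, beside 2.30%.

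Of 18 genes known to be induced by IL-1, 17 were tested in hearts. At day 30, 12 rose in Q150X, beside 15.6% of all genes, and 14 in wild type, beside 5.45%. Without the libraries that stood apart 13 rose in Q150X, beside 23.6% of all genes, and 14 in wild type, beside 18.7%. Their median log2 fold change was 2.69 in Q150X and 6.01 in wild type, or 4.99 in wild type with a gene at 0 at its lower bound. Cxcl1, a chemokine of neutrophils, rose by 5.38 ± 0.97 in Q150X (edgeR adjusted p = 8.1e-04), and in wild type Socs3, an inhibitor of cytokine signalling, rose by 4.99 ± 0.63 (1.9e-04) and Il6 by 7.14 ± 0.98 (2.8e-04). Between genotypes at day 30, 4 of the 17 were lower in Q150X, beside 0.291% of all genes called lower, and the median was -1.83 against 0.04 for all genes. Without the libraries that stood apart 6 of the 17 were lower, beside 2.30%. Among the 4 were Ptx3, a pentraxin (log2 fold change -5.06 ± 0.72, edgeR adjusted p = 0.00758), Zc3h12a, which encodes an RNase that degrades cytokine transcripts (-1.39 ± 0.25, 0.0206), and Il6 (-3.17 ± 0.67, 0.0391). The 10 IL-1 genes in the same comparison had a median of 0.13 with 0 called. Their log2 fold changes ran from -1.79 to 1.13, with 5 above 0, so the median does not show a lack of shift in each gene. In CM at day 3, 12 of 16 induced genes rose in each genotype, beside 14.9% in Q150X and 10.1% in wild type. Their median was 3.61 in Q150X and 3.18 in wild type, with genes at 0 at homeostasis set at their lower bound. In EC at day 3, 5 of 18 rose in each genotype, beside 18.7% in Q150X and 6.71% in wild type, and 2 fell in Q150X, beside 15.1% (median 1.35 and 1.64). Without Q150X EC number 2, 13 rose and 4 fell in Q150X, beside 18.9% and 18.6%, and 11 rose and 5 fell in wild type, beside 19.2% and 16.5%. Cxcl2 rose by 5.20 ± 0.98 in Q150X EC (edgeR adjusted p = 0.00646), or 6.10 without number 2, and by 5.32 ± 0.99 in wild-type EC (0.0132). The adhesion gene Vcam1 stood at -2.48 ± 0.50 in Q150X EC (edgeR adjusted p = 0.00801), or -1.87 without number 2.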

How the data were processed

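RNA was extracted with Trizol and 2 µg entered each library, per the labels' protocols. The authors deposited raw counts per gene. The submitters' processing notes name kallisto, HISAT2 and the build GRCm39, without roles. Versions of the tools, the annotation and whether counting used strand were not given in the sources used here. Symbols came from GENCODE vM21 by gene identifier (52029 of 57010 matched, and the 4981 others held at most 0.180% of a library). Levels are CPM over all genes, computed from the deposited counts. Total counts were 25948706 to 37356177 in hearts, 32008175 to 45243608 in EC and 25035490 to 42246348 in CM.

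Each compartment, and for compartments against each other all libraries of homeostasis together, was fitted on the raw counts with edgeR 4.0.16 in R 4.3.3 (limma 3.58.1; TMM factors, 1 mean per group, robust quasi-likelihood F-test) after filterByExpr with a count minimum of 10 and a total minimum of 15. P-values were adjusted by Benjamini and Hochberg over all genes of a fit, and 0.05 was the threshold. SE was computed as the log2 fold change divided by the square root of F. Fits were tested on simulated counts. Groups at 0 were compared with a floor of 3 counts per library on totals scaled by the TMM factors, which covers counting error only. Alternatives were DESeq2 1.42.0, its size factors in edgeR, no filter, a replicate block, leaving out each library and leaving out libraries that stood apart. Hearts of homeostasis with the same number deviated together (r 0.69, 0.50 and 0.57 between genotypes), and no other set of 3 or more pairs did so in every pair, so a block over these hearts was added after seeing the data. The lists, the likeness and the levels per kilobase without the libraries that stood apart, and the scaling of the floor, were also added after seeing the data.

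The 10 genes, the gene lists, the markers and the libraries called apart were chosen with earlier results of these data known. All 10 genes are named with levels, and fold changes are given for genes that passed, for the gene with the smallest p where none passed, and for some genes that did not pass, chosen after their values were seen. In each list the 3 genes with the smallest p could be named. Likeness used genes with a mean of at least 1 CPM. Single-nucleus data were not analysed here.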

Additional observations from a re-analysis of the deposited data

Results flagged for a closer look

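The level of the decoy receptor gene Il1r2 in Q150X heart number 2 at day 7 after MI was 5.95 CPM, far from the other 3 hearts of its group, of which the nearest had 1.18 CPM. The gap is 0.852 of the range of the group. This was the only one of 30 groups of 4 hearts and genes in which a library stood out in this way, and chance does so in about 1 of 20 groups. The same heart also had the highest Il1b (6.41 CPM), Il1rn (3.94 CPM), Il18 (3.35 CPM) and Nlrp3 (2.94 CPM) of its group, and its 10 neutrophil markers summed to 45.0 CPM, against 3.49 to 10.4 CPM in the other 3 hearts. Their part in the value was not tested.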

How the results depend on the processing

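None of the 70 fold changes of the 10 genes that passed the test changed sign under an alternative. Of the 157 that did not pass, 72 changed sign under at least 1 alternative, and 5 of them passed with the other sign, all with Q150X EC number 2 as the lone Q150X library of day 3. These were Il33 at day 3 against homeostasis in Q150X (-0.85, against 1.35 with all libraries), Il1a and Il1b for Q150X against wild type (-3.85 and -3.27, against 0.11 and 0.14) and Il1a and Il1b in the interaction (-3.87 and -3.12, against 0.09 and 0.29). Of Q150X against wild-type EC at day 3, Il1b also stood at -0.48 with a replicate block, and Nlrp3 at 0.60 without number 2, against -0.31 with all libraries. Leaving out each library in turn gave -0.85 to 2.16 for this Il33 change, -3.27 to 1.04 for Il1b and -3.93 to 0.60 for Nlrp3 between genotypes. Among fold changes given though they did not pass, 8 passed with DESeq2, 3 with no filter and 9 without the libraries that stood apart. On unscaled library totals the lower bounds were 19.3-fold in Q150X and 14.5-fold in wild type for Il1rn in CM, 3.04-fold for Il1r2 in wild-type CM, and 33.5-fold and 4.27-fold for Il1rn and Il1r2 in EC against CM. Of the 70 fold changes that passed the test, 70 also passed with DESeq2 and 70 with its size factors, while 7 were lost with no filter on low counts, 5 with a replicate block and 6 of 57 without the libraries that stood apart. The count of the 10 genes called in wild-type hearts at day 7 (1) was 0 with no filter, 2 with DESeq2, 4 with the replicate block at homeostasis and 2 without the libraries that stood apart. Between day 30 and day 7 it was 5 with DESeq2 and 5 without those libraries in wild type (3), and 0 with no filter in Q150X (2). In wild-type EC at day 3 (7) it was 4 with a replicate block, in which same-numbered libraries share only a number. For Q150X against wild-type EC at day 3 (0) it was 1 without the library that stood apart. For Q150X against wild-type CM at homeostasis (0) it was 2 with no filter and 1 with DESeq2, and for the interaction in CM (0) it was 2 with no filter. For CM against hearts (3) it was 5 with no filter. Shares over all genes under these alternatives are not set beside the counts here, so the counts cannot be read alone. The cause of these moves was not tested. The block changed no other count by over 1.5 times.

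Leaving out each library of the groups compared in turn gave 0 to 1 called genes in wild-type hearts at day 7 and 3 to 7 at day 30, 0 to 4 in Q150X hearts between day 30 and day 7, 3 to 6 in wild-type EC at day 3, 0 to 7 for the genotype and 0 to 7 for the interaction in EC at day 3, and 3 to 5 for CM against hearts. The interaction count of 7 came without Q150X EC number 1 at day 3. Where this leaves 1 library in a group, it is assumed to vary like the other groups. Shares over all genes are not set beside these ranges, so the ranges cannot be read alone. Levels scaled by TMM over all libraries moved by over 1 SD in 28 of 140 cases. A gene under 3 counts in a library is not distinguished from 0 at these depths.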
